A study of Mus musculus with 20 samples.

Results

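The regions described here were the open chromatin regions of the mouse genome in which total RNA of a salivary gland cell line gave reads often enough to be measured. They were the rows of the deposited open chromatin table with a mean of 5 or more counts over its 19 libraries. Of 83914 regions listed, 7485 (8.92%) met this minimum, 31215 had any count and 52699 were at 0 in every library. Membership was set by the measured counts themselves, and 12 of the 19 libraries in that mean came from Zcchc8 KO cells. A region that is high in these cells alone could therefore enter, and one that is high in the controls alone entered less easily.

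The cells were SIMS, an epithelial line from mouse salivary gland, grown in DMEM with 10% fetal bovine serum. The study compared unedited wild-type cells, Btbd7 KO cells as the negative control, and Zcchc8 KO clones 1, 2 and 3, with both genes edited by CRISPR/Cas9. It asked which regulatory features of the genome change in transcription without Zcchc8. Each edited group and each clone had 4 libraries, and the open chromatin table held 3 of wild type, replicates 2 to 4. Each Zcchc8 KO line was 1 clone, and the labels do not say whether the Btbd7 KO cells were a single clone. They also do not say that the libraries of a line came from separate cultures, so the p-values below measure the spread between these libraries, which may be technical.

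Open chromatin regions are stretches of DNA accessible to enzymes and transcription factors, many of them without a known enhancer or promoter label. RNA polymerase II starts or runs through many such places and leaves short, mostly nuclear transcripts that are degraded soon after they are made. ZCCHC8, a zinc-finger protein, holds together the NEXT (nuclear exosome targeting) complex, in which it joins the RNA-binding protein RBM7 and the helicase MTR4 and hands such transcripts to the RNA exosome. BTBD7 is a BTB-domain protein studied in the branching of salivary glands and is not a part of NEXT. The regions carry Ensembl regulatory identifiers without coordinates, so their positions, genes and sequences are not given here, and a count may include reads of an overlapping transcript.

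Gene counts ran from 6833258 to 17771804 per library, and open chromatin counts from 170773 to 432404, of which the regions with a mean of 5 or more held 89.8% to 93.6%. The libraries of clone 1 were the shallowest, with 6833258 to 7683444 gene counts in each of the 4. CPM are counts scaled to a common total of gene counts. In CPM, Zcchc8 RNA was 60.9 to 67.7 in wild type (4 libraries in the gene counts) and 56.7 to 65.3 in Btbd7 KO. It was 56 to 66.4 in clone 1, 22 to 25.3 in clone 2 and 49.9 to 60.7 in clone 3. Its level alone does not check the label of clone 1 (log2 fold change -0.08, edgeR's adjusted p = 0.468), whereas clone 2 was lower by 1.46 (log2 fold change -1.46, edgeR's adjusted p = 8.83e-13). Clone 3 was only slightly lower (log2 fold change -0.25, edgeR's adjusted p = 0.0188), which checks its label weakly. Btbd7 RNA was 190 to 208 CPM in wild type and 94.5 to 103 CPM in Btbd7 KO. Of 16 salivary epithelial markers, 11 were over 1 CPM in every library and 2 (Sox10 and Elf5) were at 0 in all of them. None of 5 immune, 4 endothelial or 3 myoepithelial markers, and 1 of 8 fibroblast markers, was over 1 CPM in every library. The 8 fibroblast markers summed to 11.3 to 18.3 CPM in wild type, 22.4 to 35.1 in Btbd7 KO, and 10.2 to 14.4, 24.6 to 28.6 and 22 to 26.4 in clones 1, 2 and 3, and their part in the results was not tested. In bulk RNA, fewer cells with a transcript and less of it per cell cannot be told apart.

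By mean count, 3147 regions (42% of the members) lay between 5 and under 10 and held 8.26% of the members' counts. Another 3237 regions (43.2%) lay between 10 and under 50, with 24.3% of the counts. There were 868 regions (11.6%) from 50 to under 200, with 31.1% of the counts, and 233 (3.11%) at 200 or more, with 36.4%. Most members were thus weakly covered, and most reads lay in few of them. At the edge of the minimum, 204 regions had a mean from 5 to under 5.2, and 169 just outside had one from 4.8 to under 5. ENSMUSR00000131377, just inside, averaged 0.332 CPM ± 0.301 (SD over 3 libraries) in wild type and 0.633 ± 0.387 (SD over 4 libraries) in clone 1. ENSMUSR00000079388, just outside, averaged 0.424 CPM ± 0.14 (SD over 3 libraries) and 0.497 ± 0.664 (SD over 4 libraries). At this depth a single region at the edge is a handful of reads per library.

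Against wild type, calls for the mean of the 3 Zcchc8 KO clones were mostly higher in weakly covered regions and mostly lower in strongly covered ones. All 7485 members passed the filter of the test (a mean of at least 1 count, 15338 regions). Of the members, 327 (4.37%) were called higher and 80 (1.07%) lower at an edgeR adjusted p under 0.05. Over all regions tested, 2.81% were called higher and 0.626% lower. Scaled to a common depth, 381 members averaged under 5 counts in both controls and at least 5 in each clone. Of these, 139 were called higher. The reverse pattern held for 24 members. The 381 owe their place to the clones' counts, so their higher calls follow in part from how members were chosen. From 5 to under 10 counts, 107 regions were higher and 3 lower. From 10 to under 50 counts the numbers were 181 and 7, from 50 to under 200 they were 31 and 41, and at 200 or more they were 8 and 29. Higher calls thus outnumbered lower ones below 50 counts, and lower calls prevailed at 200 or more. As shares of each class, 3.4%, 5.59%, 3.57% and 3.43% were higher and 0.0953%, 0.216%, 4.72% and 12.4% lower. The share called higher was close in the lowest and highest classes, while the share called lower rose with coverage. Small changes are harder to call in weak regions, where the median standard error was 0.66 in the lowest class and 0.12 in the highest. A log2 fold change under -1 was seen in 4.13% of the lowest class and 0% of the highest, and one over 1 in 16.4% and 1.29%. How far precision shapes these shares was not tested. Between 50 and 200 the balance was not settled, at 33 and 32 without TMM, 33 and 34 with DESeq2 and 19 and 18 with cell lines as replicates. Scaling within the open chromatin table gave 20 and 91 in this class. Its lower calls were 23 without wild type replicate 2 and 25 without replicate 4. Higher calls made up 80.3% of the members' calls. With scaling within the open chromatin table there were 278 higher and 171 lower (61.9% higher), and with each cell line as 1 replicate and both controls as the reference, 356 and 35 (91%). Without wild type replicate 4 all lower calls were 47, those at 200 or more counts 15 (beside 5 higher), and from 5 to under 10 counts 65 were higher and 1 lower. Without wild type replicate 3 the lower calls were 51, and 17 at 200 or more counts. Replicate 4 had gene counts close to those of replicate 2 (17481454 and 17771804) but reads in 7038 members, compared with 7347.

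**Figure D1:**
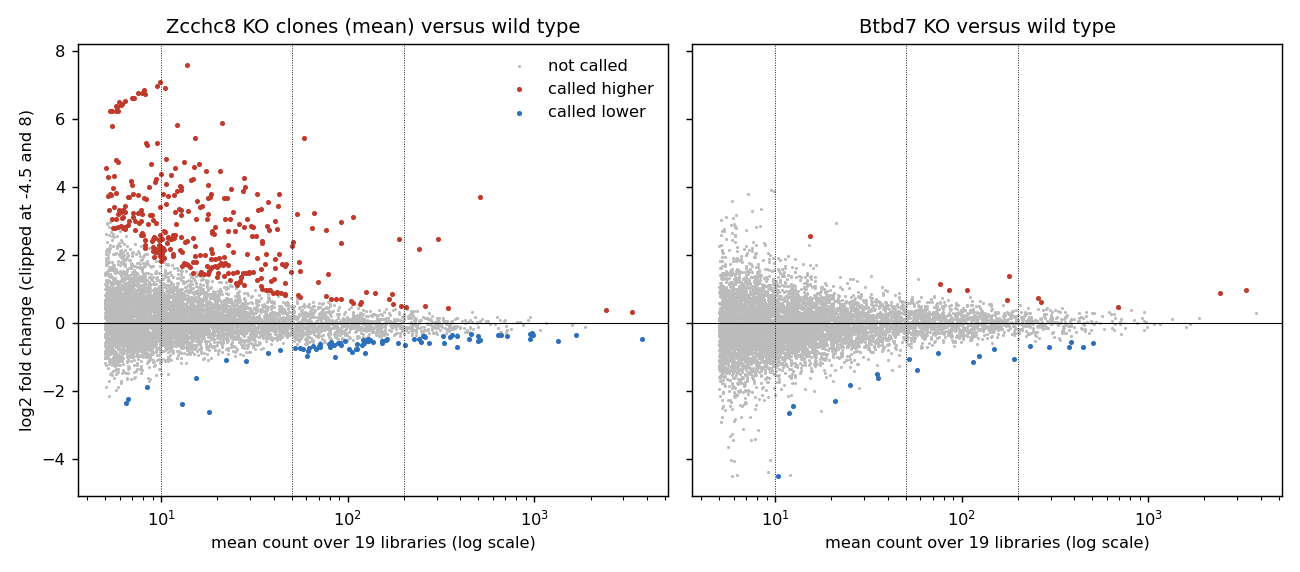
Log2 fold change (vertical axis) against mean count over 19 libraries (log scale, horizontal axis) for the 7485 open chromatin regions, for the mean of the Zcchc8 KO clones (left) and for Btbd7 KO (right), each against wild type. Red and blue points were called higher or lower by edgeR, dotted lines mark the class edges of 10, 50 and 200 counts, and the 327 red points on the left spread far above 0 below 50 counts while the blue ones gather at high counts.

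The median log2 fold change followed the same order. It was 0.187 from 5 to under 10 counts, 0.10 from 10 to under 50, -0.066 from 50 to under 200 and -0.107 at 200 or more, and with scaling within the table the medians were 0.059, -0.022, -0.188 and -0.235. Without TMM the last 2 were -0.018 and -0.060. Over all members it was 0.072, compared with 0.141 over all 15338 regions tested. Scaling within the table took this last median to 0.019, and gene totals without TMM took it to 0.187. Setting the regions with no wild-type read to their lower bound left every class median as it was. Without clone 1 the class medians were 0.216, 0.107, -0.065 and -0.10, and 279 members were higher and 62 lower.

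Because the mean that chose the members leans on Zcchc8 KO libraries, regions were also chosen by the Btbd7 KO libraries alone, which this comparison does not use. A mean of 5 or more there kept 7111 regions, 6483 of them members. Of the 7111, 174 (2.45%) were called higher in the Zcchc8 KO clones and 82 (1.15%) lower. Over all regions tested the shares were 2.81% and 0.626%. The members' excess of higher calls over all regions tested was thus not seen with this choice. By the Btbd7 KO mean, the class medians were 0.16, 0.064, -0.066 and -0.119. The number of higher calls was thus smaller by more than 1.5 times, and the order of the classes stayed.

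Single libraries were also compared for overlap. They are the libraries that set membership, so the members' excess over all regions tested follows in part from that choice. How large that part is here was not tested. In 235 members (3.14%) all 12 Zcchc8 KO libraries lay above all 3 of wild type, as they did in 1.83% of all regions tested. They lay below in 43 members (0.574%), compared with 0.372% of all tested. Set against all 7 control libraries, wild type and Btbd7 KO together, the 12 were above in 165 members (2.2%, and 1.15% of all tested) and below in 21 (0.281%, and 0.137%).

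Regions chosen in 1 pair of lines were then read in a pair with no library in common. The members among which they were chosen were set over all 19 libraries, including those read. Members that entered through high Zcchc8 KO counts lean above 0 in any clone, so these values are a description. In a fit of clone 1 and Btbd7 KO alone, 417 members were called higher in clone 1. Their median log2 fold change in clone 2 against wild type was 1.43, and 374 of them (89.7%) were above 0, compared with a median of 0.11 and 57.7% over all members. Of the 417, 169 were also called higher in clone 2 against wild type, where 230 members were called in that fit. The 170 members called lower in clone 1 had a median of -0.18 in clone 2, with 73.5% below 0 compared with 42.3% of all members, and 16 were called lower. Over the 6 such pairings of clones, 82.4% to 92% of the regions chosen as higher were above 0 in the other clone, and 68.6% to 83.1% of those chosen as lower were below 0.

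Summed over a class, the level of weakly covered regions was higher in every Zcchc8 KO library than in every wild-type one. Members and classes were set by a mean that leans on Zcchc8 KO libraries, so this difference follows in part from that choice. How large that part is was not tested. Scaled to a common depth, 381 members were under 5 counts in both controls and at least 5 in each clone, and 24 the reverse. From 5 to under 10 counts the sum was 1710 CPM ± 96.6 (SD over 3 libraries) in wild type, with libraries from 1620 to 1820, and 1580 ± 93.5 (SD over 4 libraries) in Btbd7 KO. It was 2010 CPM ± 110, 2030 ± 112 and 2080 ± 177 in clones 1, 2 and 3 (SD over 4 libraries each), with the lowest of these libraries at 1890. From 10 to under 50 counts it was 5150 CPM ± 177 in wild type, 4920 ± 186 in Btbd7 KO, 5860 ± 229 in clone 1, 5820 ± 205 in clone 2 and 5840 ± 276 in clone 3. In both classes the lowest Zcchc8 KO library lay above the highest of wild type and of Btbd7 KO. From 50 to under 200 counts the sum was 7090 CPM ± 44.4 in wild type, 7150 ± 148 in Btbd7 KO and 6970 ± 154, 6930 ± 119 and 6890 ± 95.3 in clones 1, 2 and 3. There clones 1 and 2 overlapped the controls, and clone 3 (6770 to 6990 CPM) lay below both wild type (7040 to 7130) and Btbd7 KO (7000 to 7300). At 200 or more counts wild type gave 8370 CPM ± 219, Btbd7 KO 8810 ± 70.3 and the clones 7990 ± 146, 7860 ± 138 and 7920 ± 269. In that class every Zcchc8 KO library was below every Btbd7 KO library, but the ranges of clone 1 (7800 to 8150 CPM), clone 3 (7690 to 8250) and wild type (8120 to 8520) overlapped. Without TMM the ratio of the clones to wild type from 50 to under 200 counts was 1.01 in place of 0.978. With scaling within the open chromatin table the ratio was 1.09 in place of 1.19 from 5 to under 10 counts. From 10 to under 50 counts it was then 1.04 in place of 1.13.

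**Figure D2:**
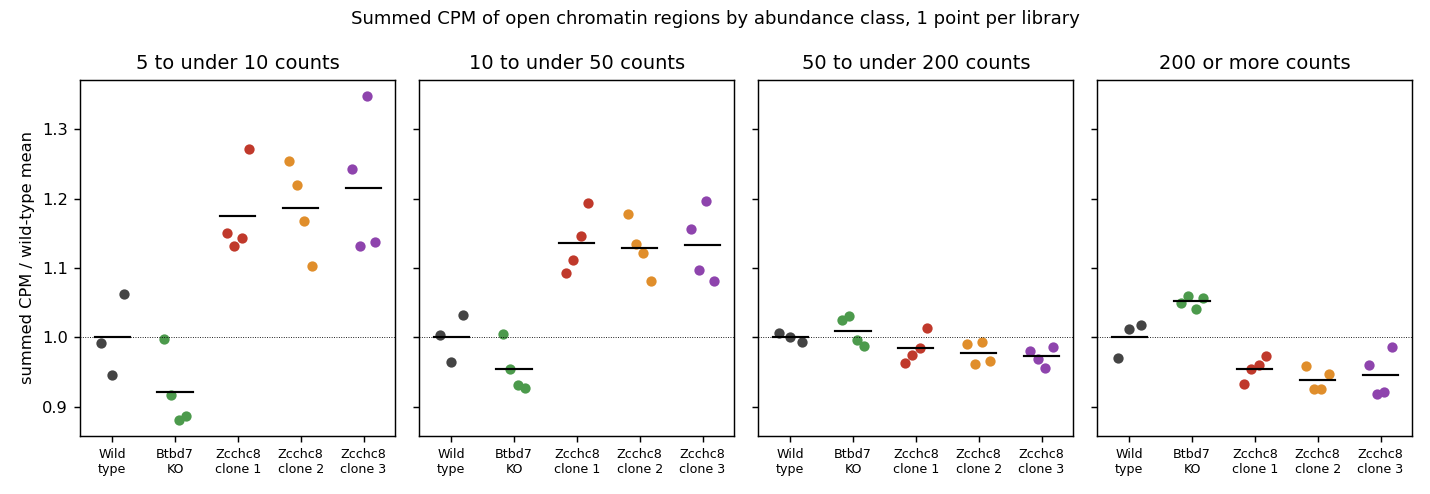
Summed CPM of the regions of each abundance class divided by the wild-type mean (vertical axis, no unit), 1 point per library and a bar at each group mean, for 5 groups. The 12 Zcchc8 KO libraries lie above wild type in the classes from 5 to under 10 and from 10 to under 50 counts (ratios of group means 1.13 to 1.22) and below its mean at 200 or more (0.939 to 0.955), while Btbd7 KO goes the other way (0.921 in the first class, 1.05 in the last).

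The total over all members hardly moved. It was 22300 CPM ± 321 (SD over 3 libraries) in wild type, 22500 ± 414 in Btbd7 KO and 22800 ± 615, 22600 ± 441 and 22700 ± 410 in clones 1, 2 and 3 (SD over 4 libraries each), and the ranges overlapped. Region by region, rises over the wild-type mean summed to 2650 CPM in the mean of the clones and falls to -2240, a net of 409. Members called higher held 35.9% of the summed rise, and members called lower 29.2% of the summed fall. Most of both sums therefore lay in regions that did not pass the test one by one. Such sums also gather the spread between libraries, and how much of them it makes up was not tested.

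The regions called higher were weak in the controls. Their median level was 0.286 CPM in wild type and 0.427 in Btbd7 KO, and 2.24, 1.8 and 1.88 in clones 1, 2 and 3. The regions called lower had medians of 12.9 CPM in wild type, 12.3 in Btbd7 KO and 8.36, 8.72 and 9.59 in the clones. These medians describe the sets that the test chose and support nothing further.

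Single regions show how large the rises were. The examples came from the 73 members with a mean of at least 20 counts that were called higher for the mean of the clones and in each clone, and not called in Btbd7 KO. These comparisons share the wild-type libraries. The 8 largest rises were weak in every control and reached the minimum of 20 counts through their Zcchc8 KO reads. Their calls thus follow in part from how they were chosen, and their values are a description. The largest fitted change among them was that of ENSMUSR00000684662, at 0.114, 0 and 0 CPM in wild type and 0.535, 0.132, 0.247 and 0.59 in Btbd7 KO. It reached 5.27, 3.27, 4.54 and 3.88 CPM in clone 1, 0.834, 2.58, 1.72 and 3.69 in clone 2, and 2.82, 2.01, 2.95 and 3.38 in clone 3. The 12 Zcchc8 KO libraries lay above all 7 controls. The fitted log2 fold change was 5.87 ± 0.62 (SE, edgeR's adjusted p = 4.04e-18). Wild type had 2 reads in all and the clones 379, a ratio of pooled rates of 71.9 with an exact binomial 95% interval of 19.8 to 596, which covers counting error only, as the reads carry no molecular identifiers.

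ENSMUSR00000645840 had the most reads of the 8 largest rises, with a mean of 58.3 counts. Wild type gave 0.114, 0.44 and 0.0583 CPM and Btbd7 KO 0.0595, 0.528, 0.864 and 0.674. Clone 1 gave 9.62, 11.3, 12.4 and 6.98 CPM, clone 2 gave 7.65, 6.88, 8.62 and 11.5, and clone 3 gave 6.21, 8.55, 8.07 and 6.35. The lowest Zcchc8 KO library was well above the highest control, and the 3 clones overlapped each other. The log2 fold change was 5.43 ± 0.35 (SE, edgeR's adjusted p = 1.25e-50), at 5.66, 5.45 and 5.18 in clones 1, 2 and 3.

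The next 6 by size were ENSMUSR00000489261, ENSMUSR00000646281, ENSMUSR00000677903, ENSMUSR00000713925, ENSMUSR00000587631 and ENSMUSR00000265688, with log2 fold changes from 4.47 ± 0.54 to 3.78 ± 0.34 (SE). Their wild-type means ran from 0.114 to 0.414 CPM and those of the clones from 2.28 to 7.66. ENSMUSR00000265688 had the highest level among them, at 6.53 CPM ± 1.25, 7.66 ± 2 and 4.41 ± 1.33 in clones 1, 2 and 3 (SD over 4 libraries each), compared with 0.414 ± 0.27 (SD over 3 libraries) in wild type. The clones were not called different in any of these 8 regions (edgeR's joint adjusted p of 0.293 to 1). Since few wild-type reads set them, the folds moved with single libraries while each call stayed. Without wild type replicate 2 the fitted log2 fold changes of ENSMUSR00000684662 and ENSMUSR00000489261 became 8.14 and 8.1, that of ENSMUSR00000587631 became 5.11 and that of ENSMUSR00000713925 became 3.32. Without replicate 3, ENSMUSR00000645840 was at 6.47, ENSMUSR00000646281 at 4.93 and ENSMUSR00000713925 at 5.13, and without replicate 4, ENSMUSR00000646281 was at 3.67 and ENSMUSR00000587631 at 3.27.

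In 21 members no wild-type library had a read. Such a region reaches the minimum only through reads in the other groups, so that they were called higher follows from how members were chosen, and their levels are a description. A count of 0 in the 3 wild-type libraries together allows up to 3 reads, or 0.0621 CPM, for counting error only. Against this floor the clones' mean was at least 12.3-fold to 34-fold higher. The highest bound was that of ENSMUSR00000670040, which was also at 0 in all 4 Btbd7 KO libraries. It stood at 4.08, 1.91, 2.49 and 2.59 CPM in clone 1, 2.09, 3.8, 1.49 and 1.95 in clone 2, and 1.69, 0.88, 1.28 and 1.08 in clone 3. ENSMUSR00000578618, the largest riser from 5 to under 10 counts, averaged 2.08 CPM ± 0.933, 0.913 ± 0.429 and 1.37 ± 0.471 in clones 1, 2 and 3 (SD over 4 libraries each), at least 23.4-fold over the floor. Btbd7 KO gave 0.168 CPM ± 0.153 there, so this region was not silent in both controls.

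Among the strongly covered regions, large rises were few. Of 233 regions at 200 or more counts, 3 had a log2 fold change over 1, and these owe that class in part to their Zcchc8 KO counts. With classes set by the Btbd7 KO mean, 0 of 274 regions at 200 or more did. ENSMUSR00000712406 had the largest gain in CPM of all members and was picked for it after the values were seen. It stood at 5.54, 5.8 and 5.77 CPM in wild type and 4.64, 2.77, 4.2 and 3.45 in Btbd7 KO. Clone 1 gave 97.6, 92.5, 104 and 111 CPM, clone 2 gave 53.7, 50.7, 47.4 and 62.5, and clone 3 gave 73.7, 71.8, 79.2 and 77.5. The 5 groups did not overlap, with Btbd7 KO lowest and clone 1 highest. The log2 fold change of the mean of the clones was 3.70 ± 0.14 (SE, edgeR's adjusted p = 7.7e-159), and Btbd7 KO was lower than wild type by 0.60 (log2 fold change -0.60 ± 0.15, edgeR's adjusted p = 0.0282). The clones differed from each other (edgeR's joint adjusted p = 3.61e-12).

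ENSMUSR00000742730, another riser of this class, gave 6.4, 8.73 and 7.52 CPM in wild type and 6.66, 7, 4.94 and 5.73 in Btbd7 KO. In clone 1 it gave 42.7, 52.6, 52.8 and 65 CPM, in clone 2 it gave 40, 38.4, 36.1 and 24.2, and in clone 3 it gave 41.4, 36.3, 42 and 34. All Zcchc8 KO libraries were above all controls, and clone 1 was above the others. The log2 fold change was 2.46 ± 0.14 (SE, edgeR's adjusted p = 1.8e-64).

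**Figure D3:**
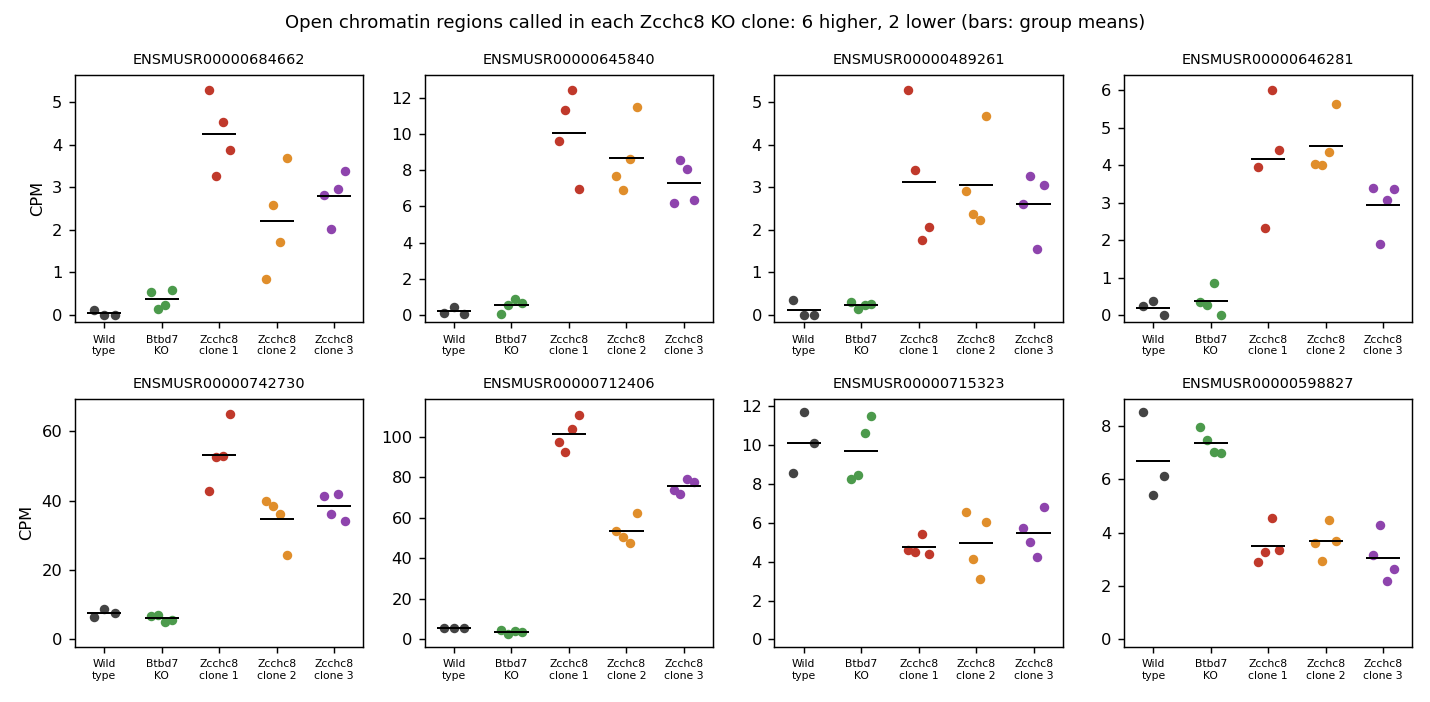
CPM (vertical axis, linear from 0, own scale in each panel) of 8 open chromatin regions in each of 19 libraries, by group, with a bar at each group mean. In the 6 regions called higher every Zcchc8 KO library lies above every control library, and in the 2 called lower (ENSMUSR00000715323 and ENSMUSR00000598827) every one lies below.

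The falls named by rule were smaller than the largest rises, with log2 fold changes of -0.77 to -1.01, and began at a readily measured level. Both follow in part from the rule, as a weak region is hard to call lower. Over all members, 154 had a log2 fold change under -1, 130 of them from 5 to under 10 counts, and 826 had one over 1. The 10 members with a mean of at least 20 counts that were called lower for the mean and in each clone, and not in Btbd7 KO, gave the examples. ENSMUSR00000715323 was at 8.57, 11.7 and 10.1 CPM in wild type and 8.26, 8.45, 10.6 and 11.5 in Btbd7 KO. It was at 4.61, 4.5, 5.41 and 4.4 CPM in clone 1, 6.53, 4.16, 3.1 and 6.05 in clone 2, and 5.71, 5.03, 4.23 and 6.82 in clone 3. The 12 Zcchc8 KO libraries lay below all 7 controls, and the log2 fold change was -1.01 ± 0.17 (SE, edgeR's adjusted p = 1.05e-06).

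ENSMUSR00000598827 averaged 6.69 CPM ± 1.62 (SD over 3 libraries) in wild type, 7.37 ± 0.454 in Btbd7 KO and 3.52 ± 0.709, 3.68 ± 0.631 and 3.07 ± 0.904 in clones 1, 2 and 3 (SD over 4 libraries each). Its log2 fold change was -0.98 ± 0.21 (SE, edgeR's adjusted p = 0.000221). ENSMUSR00000585109 fell by 0.89 on the log2 scale, from 13.4 CPM ± 0.97 (SD over 3 libraries) to 7.94 ± 2.05, 5.54 ± 0.81 and 8.81 ± 1.7 in the clones. ENSMUSR00000007078 (-0.86) and ENSMUSR00000644554 (-0.77) completed the 5 largest falls under this rule. Without wild type replicate 2, ENSMUSR00000598827 (-0.76, edgeR's adjusted p = 0.0651) and ENSMUSR00000007078 (-0.57, edgeR's adjusted p = 0.0924) were no longer called.

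The 8 most abundant members did not move as a block. ENSMUSR00000509404, the most abundant with 1.39% of the members' counts, gave 348, 352 and 360 CPM in wild type and 435, 447, 400 and 424 in Btbd7 KO. It gave 271, 275, 203 and 237 CPM in clone 1, 264, 227, 246 and 226 in clone 2, and 296, 247, 251 and 274 in clone 3. Every Zcchc8 KO library was below every wild-type one and every Btbd7 KO library above them. The log2 fold change of the clones was -0.49 ± 0.07 (SE, edgeR's adjusted p = 1.2e-10), the largest fall in CPM of all members (-102). Btbd7 KO did not pass the test here (0.27, edgeR's adjusted p = 0.253).

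ENSMUSR00000482186 and ENSMUSR00000482191 were higher in Btbd7 KO and unequal among the clones. The first averaged 202 CPM ± 26.4 (SD over 3 libraries) in wild type, 395 ± 5.84 in Btbd7 KO, and 257 ± 23.2, 177 ± 15.7 and 345 ± 42.6 in clones 1, 2 and 3 (SD over 4 libraries each). The second averaged 147 ± 3.53, 271 ± 12.7, 195 ± 15.1, 141 ± 17.2 and 259 ± 16.4 CPM in the same order. In both, clone 2 overlapped wild type while clones 1 and 3 and Btbd7 KO lay above it. For ENSMUSR00000482186 the log2 fold change was 0.97 ± 0.09 in Btbd7 KO (SE, edgeR's adjusted p = 7.74e-25) and 0.31 ± 0.07 in the mean of the clones (edgeR's adjusted p = 0.00185). With both controls as reference and lines as replicates the mean of the clones was on the other side, at -0.21 for ENSMUSR00000482186 and -0.10 for ENSMUSR00000482191, and scaling within the table ended both calls (edgeR's adjusted p = 0.251 and 0.0891). Leaving out wild type replicate 2 ended the call of the first (edgeR's adjusted p = 0.17).

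ENSMUSR00000733920 split the clones. Wild type gave 148, 130 and 125 CPM and Btbd7 KO 136, 143, 148 and 158. Clone 1 gave 157, 171, 152 and 141 CPM, clone 2 gave 66.9, 63.4, 67.3 and 76.5, and clone 3 gave 67.2, 86.7, 69.2 and 74.2. Clones 2 and 3 lay far below all other libraries, and clone 1 overlapped the controls. The log2 fold changes were 0.21 ± 0.10 in clone 1 (edgeR's adjusted p = 0.326), -0.97 ± 0.10 in clone 2 and -0.86 ± 0.10 in clone 3 (SE, edgeR's adjusted p = 4.32e-19 and 1.1e-14). The call for the mean of the clones, -0.54, was lost with lines as replicates (edgeR's adjusted p = 0.207).

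Of the other abundant regions, ENSMUSR00000540060 was lower in the clones (-0.37 ± 0.08 SE, edgeR's adjusted p = 0.000318), but not without wild type replicate 4 (-0.24, edgeR's adjusted p = 0.241). ENSMUSR00000737384 (-0.12), ENSMUSR00000574996 (-0.06) and ENSMUSR00000115391 (-0.02) did not pass the test, with edgeR's adjusted p of 0.566, 0.835 and 0.966. Their levels ran from 85.9 to 172 CPM over the group means.

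In Btbd7 KO, the negative control, few regions passed the test, and these lay mostly above 50 counts. Of the members, 11 were called higher than in wild type and 20 lower, and over all regions tested 0.0717% were higher and 0.13% lower. The median log2 fold change over the members was -0.066. From 5 to under 10 counts no region was called by edgeR or by DESeq2, and 203 of 3147 had an edgeR p under 0.05 before adjustment. Calls numbered 1 higher and 7 lower from 10 to under 50 counts, 5 and 7 from 50 to under 200, and 5 and 6 at 200 or more. All 4 Btbd7 KO libraries lay above all 3 of wild type in 283 members (3.78%, and 2.96% of all tested) and below in 372 (4.97%, and 3.7%). Without Btbd7 KO replicate 2 the calls were 7 higher and 13 lower, and without wild type replicate 4 there were 7 higher. DESeq2 gave 19 and 31, thinning to equal depth 7 and 10, and scaling within the table left 10 lower.

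ENSMUSR00000483865 was the largest riser of the Btbd7 KO cells with a mean of at least 20 counts, at 26.5, 24.6, 20.1 and 24.9 CPM compared with 6.52, 14 and 7.4 in wild type. It was uneven among libraries of single clones, at 4.35, 7.9, 5.56 and 17.5 CPM in clone 1, 29.1, 10.8, 14.2 and 12.1 in clone 2, and 20.2, 2.39, 6.15 and 21.1 in clone 3. Btbd7 KO and wild type did not overlap, and the log2 fold change was 1.38 ± 0.17 (SE, edgeR's adjusted p = 5.58e-12). DESeq2 did not call it (adjusted p = 0.287). ENSMUSR00000308370 rose from 3.81 CPM ± 1.2 (SD over 3 libraries) to 8.53 ± 1.27 (SD over 4 libraries; log2 fold change 1.14 ± 0.23 SE, edgeR's adjusted p = 0.000837), a call lost without wild type replicate 3 (edgeR's adjusted p = 0.0966).

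ENSMUSR00000601755 was the largest fall in Btbd7 KO by the same minimum. It gave 2.52, 1.61 and 2.39 CPM in wild type and 0.535, 0.528, 0.247 and 0.337 in Btbd7 KO, with no overlap (log2 fold change -2.31 ± 0.47 SE, edgeR's adjusted p = 0.00109). The clones averaged 2.19, 2.41 and 1.81 CPM, and their mean did not pass the test against wild type (-0.05). ENSMUSR00000524095 was lower in Btbd7 KO (-1.83 ± 0.45 SE, edgeR's adjusted p = 0.0351) and higher in the mean of the clones (1.18 ± 0.33 SE, edgeR's adjusted p = 0.0179). Its group means were 1.41 CPM in wild type, 0.414 in Btbd7 KO and 4, 2.81 and 3.04 in the clones. Its Btbd7 KO call did not hold without Btbd7 KO replicate 1, 2 or 4 or wild type replicate 2 or 4 (edgeR's adjusted p of 0.0876 to 0.238). It was also lost with no filter, with scaling within the table, with thinning to equal depth and with only the groups compared (edgeR's adjusted p = 0.0789, 0.0814, 0.453 and 0.503).

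Set against Btbd7 KO in place of wild type, the Zcchc8 KO clones taken as a mean had 460 members higher and 173 lower. Over all regions tested, 3.79% were higher and 1.21% lower. By class, 145 were higher and 6 lower from 5 to under 10 counts, 254 and 33 from 10 to under 50, 48 and 80 from 50 to under 200, and 13 and 54 at 200 or more. The order of the classes was that seen against wild type, and the Zcchc8 KO libraries are the same in both comparisons. With scaling within the table the balance turned, to 343 higher and 433 lower. The log2 fold changes here were 4.14 ± 0.28 for ENSMUSR00000645840 and 4.30 ± 0.13 for ENSMUSR00000712406 (SE, edgeR's adjusted p = 1.06e-47 and 7.4e-246). Both were picked for their rise in these same Zcchc8 KO libraries, the first also for having no call in Btbd7 KO. Their values here are thus a description.

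Clone by clone against wild type, with the wild-type libraries shared by the 3 comparisons, clone 1 had 317 members higher and 95 lower. Clone 2 had 253 and 54, and clone 3 had 275 and 65. Over all regions tested, 2.67% were higher and 0.645% lower in clone 1, 2.03% and 0.365% in clone 2, and 2.23% and 0.43% in clone 3. From 5 to under 10 counts, 100, 74 and 76 members were higher in clones 1, 2 and 3 and 5, 2 and 1 lower. At 200 or more counts, 8, 5 and 6 were higher and 28, 15 and 29 lower. In each clone most higher calls were below 50 counts, where most members lie, and most lower calls above. From 5 to under 10 counts, 3.18%, 2.35% and 2.41% of the class were higher in clones 1, 2 and 3. At 200 or more these shares were 3.43%, 2.15% and 2.58%. The shares called lower were 0.159%, 0.0636% and 0.0318% in the lowest class and 12%, 6.44% and 12.4% in the highest. Median standard errors were 0.77 to 0.81 in the lowest class and 0.14 in the highest, so small falls are harder to call in weak regions. The lower calls depended on single libraries. For clone 1 they numbered 61 without wild type replicate 4, 63 without wild type replicate 3 and 62 without its own replicate 3. For clone 3 they numbered 38 without wild type replicate 2, and 43 without wild type replicate 3 or without its own replicate 1 or 4.

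**Figure D4:**
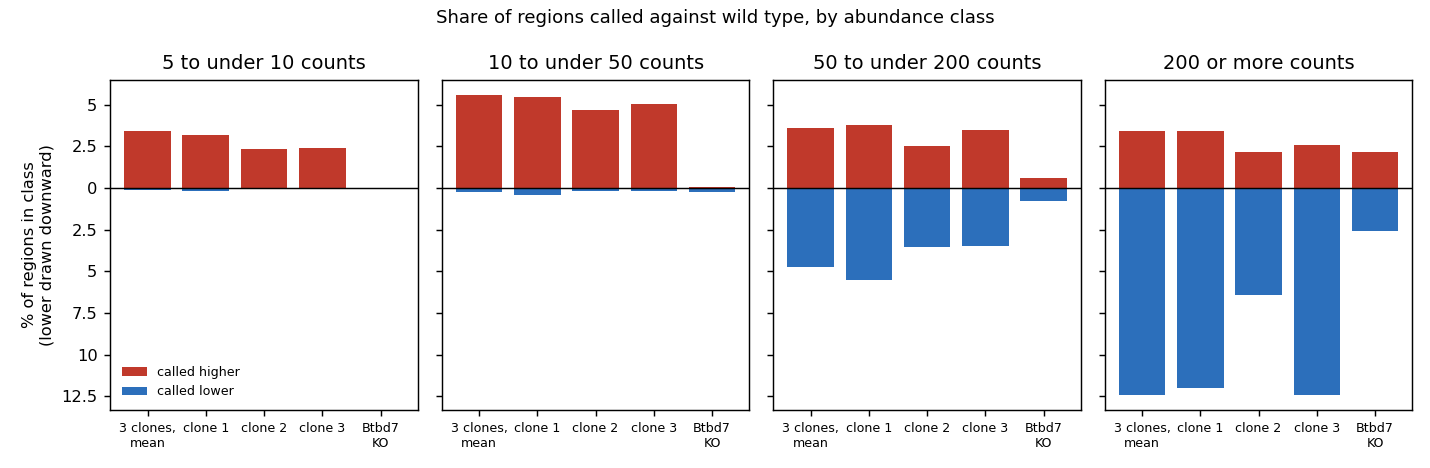
Share of the regions of each abundance class (in percent, vertical axis) called higher (red, upward) or lower (blue, downward) than wild type by edgeR, for the mean of the 3 Zcchc8 KO clones, each clone and Btbd7 KO. Higher calls reach 5.59% from 10 to under 50 counts, lower calls 12.4% at 200 or more, and Btbd7 KO has no call from 5 to under 10.

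Differences among the clones lay mostly in well covered regions. A joint test of the 3 clones called 165 members, and 1.1% of all regions tested. By class these were 15 of 3147 (0.477%), 42 of 3237 (1.3%), 64 of 868 (7.37%) and 44 of 233 (18.9%), from the lowest class to the highest. Regions with more reads are also measured more precisely. The median coefficient of variation among the libraries of clone 3 was 0.521 from 5 to under 10 counts and 0.108 at 200 or more, and those of the other groups were 0.56 to 0.672 and 0.0905 to 0.12.

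In pairs, 63 members were higher and 45 lower in clone 1 than in clone 2 (0.43% and 0.3% of all tested). Clone 1 was higher than clone 3 in 27 and lower in 13 (0.176% and 0.0848%). Clone 2 was higher than clone 3 in 41 and lower in 45 (0.274% and 0.319%). With a mean of at least 20 counts, 5 regions were higher in clone 1 than in both other clones and 0 were lower. For clone 2 these were 7 and 25, and for clone 3 they were 4 and 8. The calls between clones 1 and 2 fell from 108 to 70 without clone 1 replicate 3, those between clones 1 and 3 from 40 to 25 without clone 3 replicate 1 and to 23 without its replicate 4, and those between clones 2 and 3 from 86 to 55 without clone 2 replicate 4.

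ENSMUSR00000012185 was highest in clone 1. It gave 0.8, 1.32 and 1.98 CPM in wild type, 1.25, 1.19, 0.494 and 1.52 in Btbd7 KO, and 8.3, 10.2, 9.66 and 11.9 in clone 1. Clone 2 gave 3.61, 2.15, 3.04 and 3.13 CPM and clone 3 gave 5.22, 3.52, 3.84 and 4.59. All Zcchc8 KO libraries were above the controls, and those of clone 1 were above those of the other clones. The log2 difference was 1.76 ± 0.27 to clone 2 and 1.2 ± 0.26 to clone 3 (SE, edgeR's adjusted p = 6.88e-08 and 0.00309), the latter at an edgeR adjusted p of 0.0542 without clone 1 replicate 4.

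ENSMUSR00000647519 was highest in clone 2, at 11.1 CPM ± 1.17 (SD over 4 libraries), compared with 4.22 ± 1.53 in clone 1 and 5.13 ± 1.13 in clone 3 (SD over 4 libraries each) and 8.52 ± 1.78 (SD over 3 libraries) in wild type. Against wild type it was lower in clones 1 and 3 (-1.02 and -0.75, edgeR's adjusted p = 0.000751 and 0.0285) and not called in clone 2 (0.38, edgeR's adjusted p = 0.462). ENSMUSR00000725376 was lowest in clone 2, at 1.11, 1.15, 1.09 and 0.557 CPM, compared with 1.05, 5.45, 3.07 and 3.88 in clone 1 and 4.02, 1.76, 5.13 and 3.17 in clone 3. Replicate 1 of clone 1 lay within the range of clone 2, and the log2 difference between clones 1 and 2 was 1.79 ± 0.37 (SE, edgeR's adjusted p = 0.00082, and 0.0783 without clone 1 replicate 2).

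Clone 3 had ENSMUSR00000689158 as its own highest region and ENSMUSR00000522662 as its lowest. The first averaged 16.3 CPM ± 1.96 in clone 3, compared with 9.51 ± 2.09 in clone 1 and 8.8 ± 0.98 in clone 2 (SD over 4 libraries each) and 8.23 ± 0.531 (SD over 3 libraries) in wild type. Its difference from clone 1 (-0.77 ± 0.18 SE for clone 1 against clone 3, edgeR's adjusted p = 0.0131) was lost without clone 1 replicate 2 or 4 or clone 3 replicate 2 (edgeR's adjusted p = 0.227, 0.0614 and 0.112). The second gave 19.6, 16.9, 21.7 and 20 CPM in clone 1, 20.3, 16.8, 19.8 and 15.5 in clone 2, and 4.09, 6.92, 6.53 and 5.74 in clone 3, compared with 8.06, 5.8 and 6.76 in wild type. Clones 1 and 2 were above every library of clone 3 and of wild type. For clone 1 against clone 3 the log2 difference was 1.77 ± 0.18 (SE, edgeR's adjusted p = 9.25e-20).

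**Figure D5:**
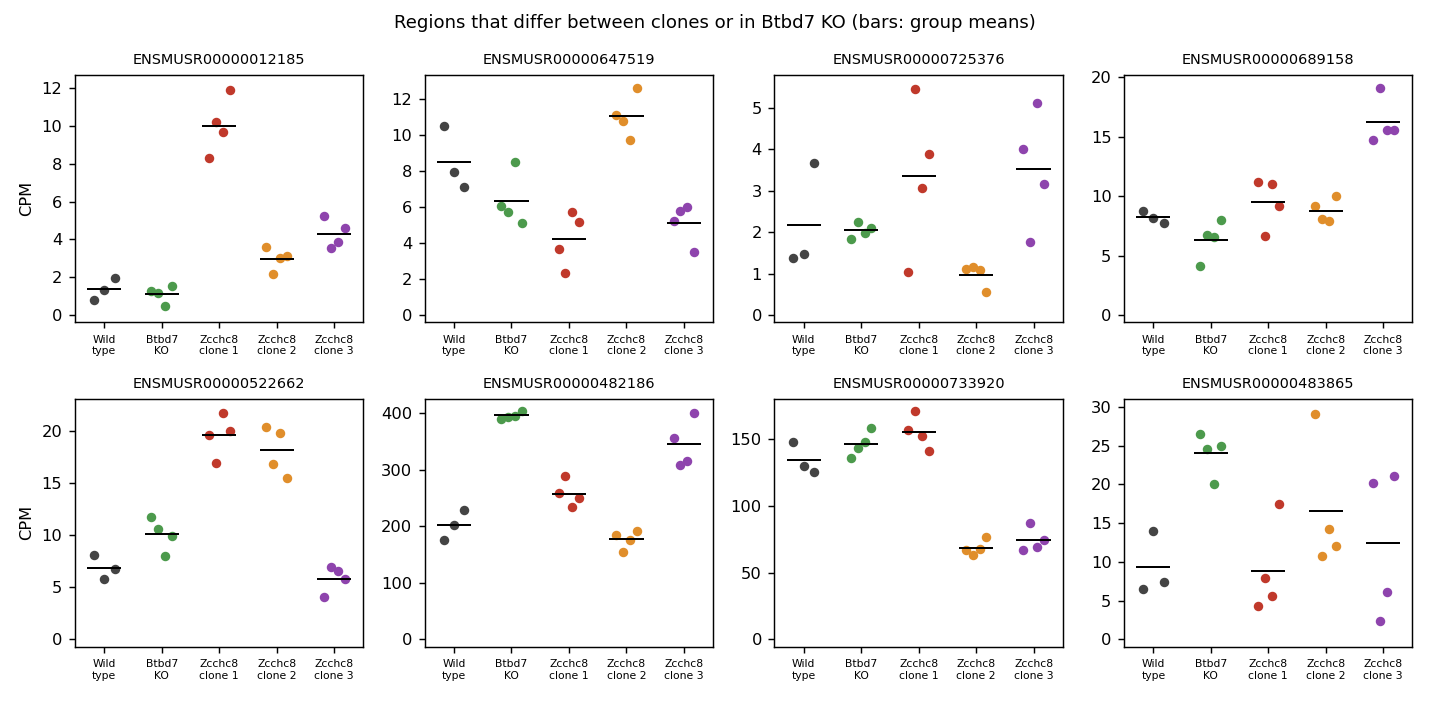
CPM (vertical axis, linear from 0, own scale in each panel) in each of 19 libraries for 8 open chromatin regions that differed between clones or in Btbd7 KO, by group, with a bar at each group mean. ENSMUSR00000733920 is low in clones 2 and 3 alone, ENSMUSR00000482186 is highest in Btbd7 KO, and ENSMUSR00000483865 spreads from 2.39 to 21.1 CPM within clone 3.

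The same fit was run on the other feature tables for regions with a mean of 5 or more counts. In the mean of the clones, 628 of 9024 enhancers were called higher and 148 lower, as were 621 and 137 of 12162 CTCF sites and 132 and 32 of 2336 transcription factor binding sites. Over all features tested in those tables, 5% and 1.1% of enhancers, 3.3% and 0.619% of CTCF sites and 3.79% and 0.782% of transcription factor binding sites were called higher and lower. For features with a mean of 5 or more counts the medians were 0.09, 0.084 and 0.074 on the log2 scale, beside 0.072 for open chromatin. At 200 or more counts the medians were -0.063, -0.108 and -0.064, beside -0.107. Features of different tables can share reads, and differences between tables were not tested.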

How the data were processed

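Total RNA of SIMS cells was sequenced from Illumina TruSeq stranded total RNA libraries, per the labels' protocols, and grouped by the sample titles. The authors deposited whole-number read counts per feature. Reads were processed with FastQC and STAR 2.7.3a, per the submitters' processing notes. The counter, genome build, strand setting and rule for shared reads are not given in the sources used here. The members, classes and lists were chosen with earlier results of these data known.

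Counts were fitted with edgeR 4.0.16 (R 4.3.3; glmQLFit, glmQLFTest) in 1 fit over 19 libraries and 5 groups, for regions with a mean of at least 1 count. Library sizes and TMM factors came from the 20-library gene table (6833258 to 17771804 counts). TMM factors were 0.971 to 0.984 in the controls and 1 to 1.03 in the clones. P-values were Benjamini-Hochberg adjusted over 15338 regions, and an adjusted p under 0.05 was a call. CPM used the same scaled totals. Standard errors were derived from the quasi-likelihood test. Class sums and medians were not tested.

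Regions were named by rule. These were the 8 most abundant and the 2 nearest the minimum on each side. In each class, the largest riser called in each clone and not in Btbd7 KO was named. The other rules asked for a mean of at least 20 counts. They gave the 8 largest rises and 5 largest falls called in each clone and for their mean, but not in Btbd7 KO. They also gave the 2 largest rises and falls of Btbd7 KO and, per clone, 1 region higher and 1 lower than both other clones. ENSMUSR00000712406 was added after its values were seen.

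The fit was tested on simulated data for the mean of the clones against wild type (15338 regions, 200 changed). It recovered 24% of regions changed 2-fold and 62% of those changed 4-fold, and 4.44% of its calls were false. Chi-square per degree of freedom between replicates was 2.09 to 5.83, above sampling noise, and none was merged. The design's replicate numbers were checked over 36 same-number pairs (r of -0.116 to 0.193) and do not pair the libraries.

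Alternatives included DESeq2 1.42.0, filterByExpr or no filter, gene totals without TMM, scaling within the table, thinning to equal depth, only the groups compared, the replicate block, members or classes by Btbd7 KO, cell lines as replicates, each class without its most abundant region, and leaving out each library. The fit without clone 1 and the reading of chosen regions in lines with no library in common were added after seeing the data.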

Additional observations from a re-analysis of the deposited data

Results flagged for a closer look

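Leaving aside the 4 regions nearest the minimum, in 14 of the other 34 regions named by rule or added, the effect differed between the 3 Zcchc8 KO clones by the joint edgeR test. The adjusted p was 2.32e-40 for ENSMUSR00000733920, 2.81e-29 for ENSMUSR00000482186, 3.37e-22 for ENSMUSR00000522662, 3.37e-21 for ENSMUSR00000482191 and 3.61e-12 for ENSMUSR00000712406. It was 4.31e-09 for ENSMUSR00000647519, 1.84e-08 for ENSMUSR00000012185, 9.06e-05 for ENSMUSR00000689158, 0.000147 for ENSMUSR00000725376, 0.000368 for ENSMUSR00000483865 and 0.00048 for ENSMUSR00000742730. For ENSMUSR00000308370, ENSMUSR00000737384 and ENSMUSR00000574996 edgeR's adjusted p was 0.0179, 0.028 and 0.0336. ENSMUSR00000742730 and ENSMUSR00000712406 were higher than wild type in every clone, and so differed in size and not in direction. Regions with clone differences were chosen as such for 5 of the names.

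In 7 of 156 groups of 4 libraries examined, 1 library stood far from the other 3 relative to their range, where chance gives about 1 in 20 groups. Replicate 1 of clone 1 was high in ENSMUSR00000007078 (9.88 CPM, the others 4.77 to 5.12) and low in ENSMUSR00000585109 (4.87 CPM, the others 8.66 to 9.13), both among the regions lower in the clones. Replicate 2 of clone 3 was low in ENSMUSR00000115391 (94.1 CPM, the others 111 to 114) and high in ENSMUSR00000601755 (3.14 CPM, the others 1.27 to 1.42). Replicate 3 of clone 1 was high in ENSMUSR00000540060 (151 CPM, the others 139 to 140). Replicate 4 of clone 2 was low in ENSMUSR00000725376 (0.557 CPM, the others 1.09 to 1.15). Replicate 4 of clone 1 had the highest summed level of that clone from 5 to under 10 counts (2180 CPM, the others 1940 to 1970).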

How the results depend on the processing

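Counts of calls without 1 library each, as lowest and highest, were 252 to 337 higher and 47 to 84 lower for the mean of the clones, 61 to 96 lower for clone 1, 38 to 65 lower for clone 3, 7 to 12 higher and 13 to 20 lower for Btbd7 KO, 70 to 122 between clones 1 and 2, 23 to 51 between clones 1 and 3, and 55 to 101 between clones 2 and 3. Scaling within the open chromatin table gave 171 lower calls for the mean of the clones, 166 for clone 1, 87 for clone 2, 10 for Btbd7 KO and 433 against Btbd7 KO, class medians of 0.059, -0.022, -0.188 and -0.235 and class ratios to wild type of 1.09, 1.04, 0.894 and 0.867. Without TMM the medians of the upper classes were -0.018 and -0.060, their ratios 1.01 and 0.978, and clone 3 had 40 lower calls. Thinning gave 7 higher and 10 lower calls for Btbd7 KO. Only the groups compared gave 52 lower calls for clone 1 and 13 for Btbd7 KO. DESeq2 gave 19 higher and 31 lower for Btbd7 KO and 72 between clones 1 and 3. Members by Btbd7 KO left 174 higher, and cell lines as replicates 35 lower. Signs turned for ENSMUSR00000115391 (-0.13 to 0.06 without 1 library each, 0.03 without TMM, 0.03 thinned, 0.06 without clone 1), for ENSMUSR00000574996 (0.02 without clone 1), neither called, and for ENSMUSR00000482186 (-0.21) and ENSMUSR00000482191 (-0.10) with cell lines as replicates. Apart from the smaller number of lines or regions in some of these fits, the cause was not tested. The replicate block, whose numbers do not pair the libraries, gave 294 higher and 72 lower calls for the mean of the clones. From 5 to under 10 counts, thinning gave 64 higher calls in place of 107, and leaving out wild type replicate 4 gave 65.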
